A study of Eublepharis macularius with 23 samples.

Results

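*XDH* and 7 genes of pteridine synthesis and its cofactors were followed in the embryonic dorsal skin of the leopard gecko, *Eublepharis macularius*. The genes are *XDH*, *GCH1*, *PTS*, *SPR*, *QDPR*, *PCBD1*, *GCHFR* and *MOCOS*, taken by their symbols from count tables that each list 22064 genes, and all 8 were present and passed the filter on low counts. *XDH* was chosen by its difference between genotypes in these same libraries, so its values are described with no test, and the other 7 were chosen by their known roles. The Hypome 1 libraries came from 4 homozygous, 3 heterozygous and 2 wild-type embryos at embryonic day 40, and Hypome 1 is a morph of captive stocks with reduced black pigment and recessive inheritance. All Hypome 1 embryos were offspring of a single pair of heterozygous parents, sampled over several seasons, so the spread between libraries is that between siblings. Embryos were genotyped with markers beside the mapped interval and were not sexed, and incubation temperature favored females. The Hypome 3 libraries described here came from 3 heterozygous embryos of another recessive morph with reduced black pigment at the same age. Hypome 2 and homozygous Hypome 3 embryos were not analysed here. Each library is RNA of whole dorsal skin, in which fewer cells of a type and less RNA per cell cannot be told apart.

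Yellow and orange color in reptile and fish skin comes largely from xanthophores, which store pteridines and carotenoids. Pteridines are built from GTP, first by the cyclohydrolase GCH1, then by PTS and by the sepiapterin reductase SPR, which completes tetrahydrobiopterin (BH4). PCBD1 and QDPR recycle BH4 after it has served the hydroxylases of phenylalanine, tyrosine and tryptophan, and GCHFR binds GCH1 and regulates its activity. XDH, the xanthine dehydrogenase of purine breakdown, also oxidizes pterins, and MOCOS adds the sulfur to the molybdenum cofactor that XDH and the aldehyde oxidases need. In zebrafish, *xdh* and *gch2*, a second cyclohydrolase gene, are used as xanthophore genes.

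*XDH* transcripts were 10.1 times as abundant in homozygous as in wild-type skin and 12.0 times as abundant as in heterozygous skin. *XDH* stood at 31.1, 23.0, 10.1 and 21.5 CPM (counts scaled to library size, normalized between libraries with TMM factors) in the homozygous samples. The heterozygous samples had 1.09, 1.51 and 2.78 CPM, and the wild-type samples 2.56 and 1.68 CPM. Every homozygous library lay above every other library, and the lowest homozygous value was 3.65 times the highest of the others. The means were 21.5 ± 8.65 CPM in homozygous (SD, n = 4), 1.79 ± 0.881 CPM in heterozygous (SD, n = 3) and 2.12 ± 0.626 CPM in wild-type skin (SD, n = 2). The heterozygous values spanned those of the wild-type. The fitted log2 fold changes were 3.34 (SE 0.53) for homozygous against wild-type, 3.59 (SE 0.45) for homozygous against heterozygous and -0.25 (SE 0.49) for heterozygous against wild-type. These values rest on 366 to 1003 counts per homozygous library, against 59 to 100 per heterozygous and 77 to 90 per wild-type library. Without TMM factors the ratios of means were 8.55 over wild-type and 10.3 over heterozygous, and as TPM, which scales counts by gene length before the library total, they were 8.01 and 9.36.

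*XDH* spans 72854918 to 72945149 on the plus strand of Scaffold 1 of the study's own leopard gecko assembly, with 37 separate exon blocks and an exonic length of 5962 bases. *LOC129329681* lies inside it on the same strand. It held 0 to 8 counts in the homozygous, 0 in the heterozygous and 0 to 2 in the wild-type libraries.

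Genotype and sampling year overlapped only in part, so *XDH* was also compared within a year. In the latest of the 3 years, homozygous replicates 2 and 3 averaged 16.6 CPM, against 2.78 CPM in heterozygous replicate 3 and 2.56 CPM in wild-type replicate 1. In the middle year, homozygous replicates 1 and 4 averaged 26.3 CPM, against 1.68 CPM in wild-type replicate 2. The ratio of homozygous over wild-type was thus 6.48 in the latest and 15.7 in the middle year, and that of homozygous over heterozygous was 5.97 in the latest. Heterozygous replicates 1 and 2, from the earliest year, had the lowest *XDH* of Hypome 1 and no other genotype beside them. Homozygous replicates 1 and 4 also had the lower RNA integrity, and without them the log2 fold changes were 2.98 against wild-type and 3.24 against heterozygous. Years and integrity were joined to the libraries by genotype and replicate number, a match that no label gives, so these values are uncertain.

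**Figure D1:**
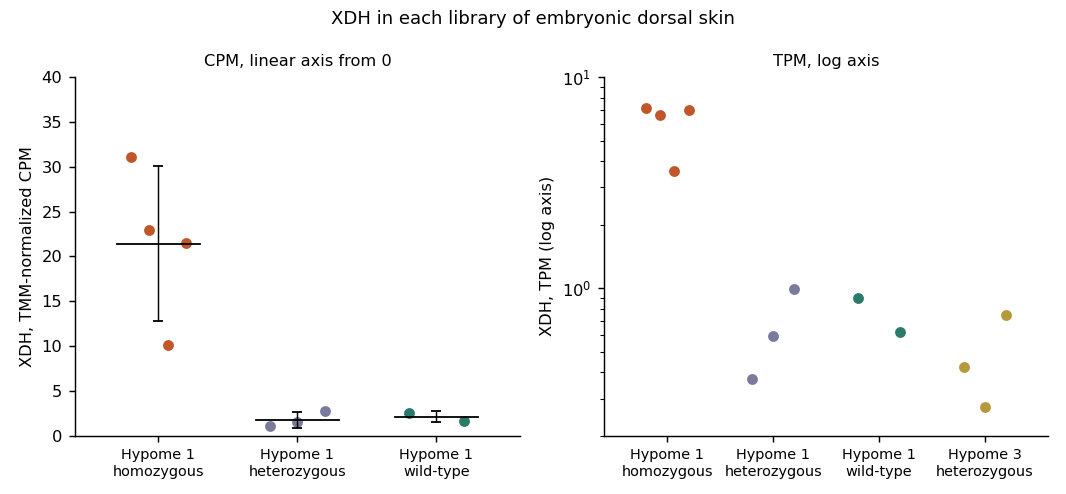
*XDH* in each library, as TMM-normalized CPM on a linear axis (left, with mean and SD) and as TPM on a log axis (right). The 4 homozygous Hypome 1 libraries sit between 10.1 and 31.1 CPM, and all heterozygous and wild-type libraries lie at or under 2.78 CPM. The Hypome 3 heterozygous libraries, shown only as TPM, lie between 0.273 and 0.743.

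Levels of different genes were compared as TPM. *QDPR* was the most abundant of the 8 genes in every genotype, with a mean of 117 ± 16.2 TPM in homozygous (SD, n = 4), 143 ± 7.22 TPM in heterozygous (SD, n = 3) and 152 ± 16.5 TPM in wild-type skin (SD, n = 2). *SPR*, *GCHFR* and *PCBD1* followed, with means between 29.3 and 43.3 TPM over the 3 genotypes, and neighbors among these 3 overlapped within each genotype. *MOCOS* came next with means of 21.3 to 25.3 TPM, and its range overlapped with that of *GCHFR* in homozygous and that of *PCBD1* in heterozygous skin. *PTS* had means of 7.30 to 10.7 TPM, under the range of *MOCOS* in each genotype. *GCH1* was the lowest, with means of 0.129, 0.201 and 0.119 TPM in homozygous, heterozygous and wild-type skin. *XDH* was the seventh of the 8 genes in each genotype. In homozygous skin its 3.59 to 7.16 TPM overlapped with the 5.98 to 10.1 TPM of *PTS*. In heterozygous skin its 0.370 to 0.989 TPM overlapped instead with the 0.0302 to 0.381 TPM of *GCH1*, and in wild-type skin its 0.622 to 0.898 TPM overlapped with neither.

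**Figure D2:**
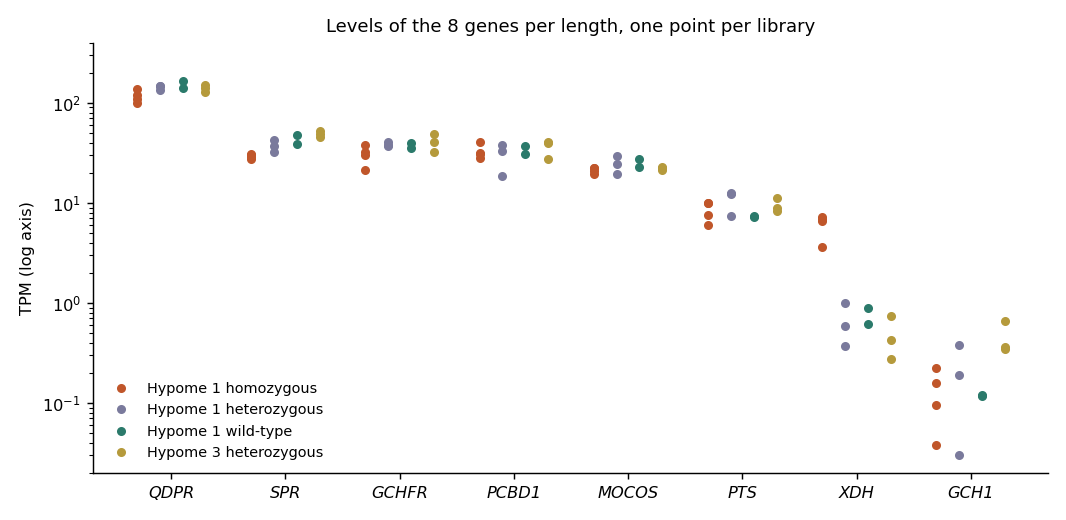
TPM of the 8 genes on a log axis, with 1 point per library and the genes ordered by their wild-type mean. The homozygous points of *XDH* stand apart from those of the other groups, and for the other 7 genes the colors lie close together or overlap.

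No difference between genotypes was called for any of the 7 other genes. Under edgeR's quasi-likelihood test with adjustment over all 16751 genes tested, 0 of 7 passed an adjusted p of 0.05 in homozygous against wild-type skin, 0 of 7 in homozygous against heterozygous and 0 of 7 in heterozygous against wild-type. Over all genes tested the shares that passed were 0.0179%, 0.0358% and 0.0%. The same test passed few genes of any kind. On simulated data it recovered 27% of changes of log2 size 1 for homozygous against wild-type and 43% for homozygous against heterozygous. These counts thus say little of changes of that size or smaller, and the intervals below give their limits. At an unadjusted p under 0.05 the counts were also 0 of 7 in each comparison, where all genes gave 8.53%, 17.8% and 1.53%. DESeq2's Wald test called 0 of the 6 or 7 genes it gave an adjusted p, both on all 9 libraries and on only the groups compared. On only the groups compared it called 2.67% of all genes for homozygous against wild-type and 6.36% for homozygous against heterozygous. The median log2 fold change of the 7 genes was 0.08 for homozygous against wild-type and -0.02 for homozygous against heterozygous, and over all genes tested it was 0.01 and 0.00. For 0 of 7 genes did the 4 homozygous libraries all lie above or all below the other 5, which 9.65% of the genes tested did.

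Of the genes that lead from GTP to BH4, the rows named *GCH1*, *PTS* and *SPR* showed no common direction. Rows named *GCH1-like* and *PTS-like*, described below, held most of the TPM summed by name for their steps. Their log2 fold changes in homozygous skin were positive, and edgeR called none of them. DESeq2 on only the groups compared called all of them against heterozygous, where it called 6.36% of all genes. Against wild-type, where it called 2.67%, it called only *LOC129342328* (*PTS-like*) among them. *GCH1* was near the limit of detection, with 2 to 14 counts in the homozygous, 2 to 16 in the heterozygous and 5 and 6 in the wild-type libraries. *GCH1* had 0.0681, 0.322, 0.111 and 0.205 CPM in homozygous skin, against 0.0368, 0.201 and 0.444 CPM in heterozygous and 0.142 and 0.131 CPM in wild-type skin. Its log2 fold change against wild-type had a 95% interval of -1.86 to 2.64, and no difference was detectable at this depth. *PTS*, the next enzyme, had 5.65, 7.60, 6.10 and 5.09 CPM in homozygous, 7.82, 6.98 and 4.47 CPM in heterozygous, and 4.50 and 4.31 CPM in wild-type skin. As CPM with TMM factors, all 4 homozygous values of *PTS* were above both wild-type values, by a log2 fold change of 0.47 (SE 0.27, edgeR adjusted p = 0.683), and they lay inside the heterozygous range. Within the latest year the homozygous mean of *PTS* was 1.52 times the wild-type and 1.53 times the heterozygous value. Within the middle year it was 1.25 times the wild-type value. Each of these ratios rests on 1 library of the other genotype, and the match of years to libraries is uncertain. *SPR* had 58.4, 52.8, 41.5 and 43.7 CPM in homozygous, 53.1, 52.3 and 44.1 CPM in heterozygous, and 67.4 and 50.6 CPM in wild-type skin. Its groups overlapped, with log2 fold changes of -0.27 (SE 0.17, edgeR adjusted p = 0.724) against wild-type and -0.02 (SE 0.15, edgeR adjusted p = 0.947) against heterozygous.

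The scale bears on *PTS*, *SPR*, *GCHFR* and, as given below, *QDPR*. Homozygous replicate 1, matched to lower RNA integrity, had a TMM factor of 0.780, against 0.963 to 1.08 in the other Hypome 1 libraries. Library totals without TMM factors moved the median log2 fold change of all genes to -0.18 in both comparisons with homozygous skin. *PTS* then overlapped with wild-type, with a homozygous minimum of 4.41 CPM against a wild-type minimum of 4.54 CPM, and as TPM with 5.98 against 7.25. As TPM, the homozygous values of *SPR*, 27.4 to 31.1, all lay below the 32.0 to 42.1 of heterozygous and the 38.4 to 48.3 of wild-type skin. As CPM without TMM factors they overlapped again, and *GCHFR* had all homozygous values, 21.1 to 31.5, below those of the other genotypes, 31.5 to 33.6.

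The genes that recycle BH4 or regulate its synthesis stayed within the spread between libraries. *QDPR* had 79.4, 72.0, 46.9 and 46.7 CPM in homozygous, 64.8, 56.5 and 57.0 CPM in heterozygous, and 70.5 and 57.1 CPM in wild-type skin. On this scale the homozygous libraries therefore held both the highest and the lowest values. Without TMM factors the highest homozygous value of *QDPR* was 69.3 CPM, against 76.4 CPM in wild-type skin. As TPM these were 138 and 164. *PCBD1*, the other recycling enzyme, had 18.7, 19.5, 10.9 and 13.2 CPM in homozygous, 13.3, 6.55 and 14.6 CPM in heterozygous, and 14.4 and 11.5 CPM in wild-type skin. Its log2 fold change was 0.26 (SE 0.34, edgeR adjusted p = 0.862) against wild-type and 0.44 (SE 0.30, edgeR adjusted p = 0.45) against heterozygous. *GCHFR*, the regulator of GCH1, had 27.0, 30.4, 31.0 and 29.1 CPM in homozygous, 32.2, 30.0 and 30.2 CPM in heterozygous, and 29.1 and 31.3 CPM in wild-type skin. Its 95% intervals ran from -0.29 to 0.22 against wild-type and from -0.29 to 0.16 against heterozygous on the log2 scale.

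For *MOCOS*, which activates the XDH enzyme, no difference was called either. *MOCOS* had 45.8, 33.8, 25.5 and 32.7 CPM in homozygous, 33.9, 23.3 and 38.9 CPM in heterozygous, and 30.7 and 34.7 CPM in wild-type skin, and the groups overlapped. The log2 fold change was 0.08 (SE 0.24, edgeR adjusted p = 0.953) against wild-type and 0.10 (SE 0.22, edgeR adjusted p = 0.819) against heterozygous. Of the 7 genes, 4 had 95% intervals that stayed below a doubling and above a halving against wild-type, and 5 did against heterozygous. The genes outside these limits were *GCH1*, *PTS* and *PCBD1* against wild-type, and *GCH1* and *PCBD1* against heterozygous. The interval of each of the 7 lay below the point estimate of *XDH* in the same comparison. *XDH* was chosen by this difference, so that is a description and no test.

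**Figure D3:**
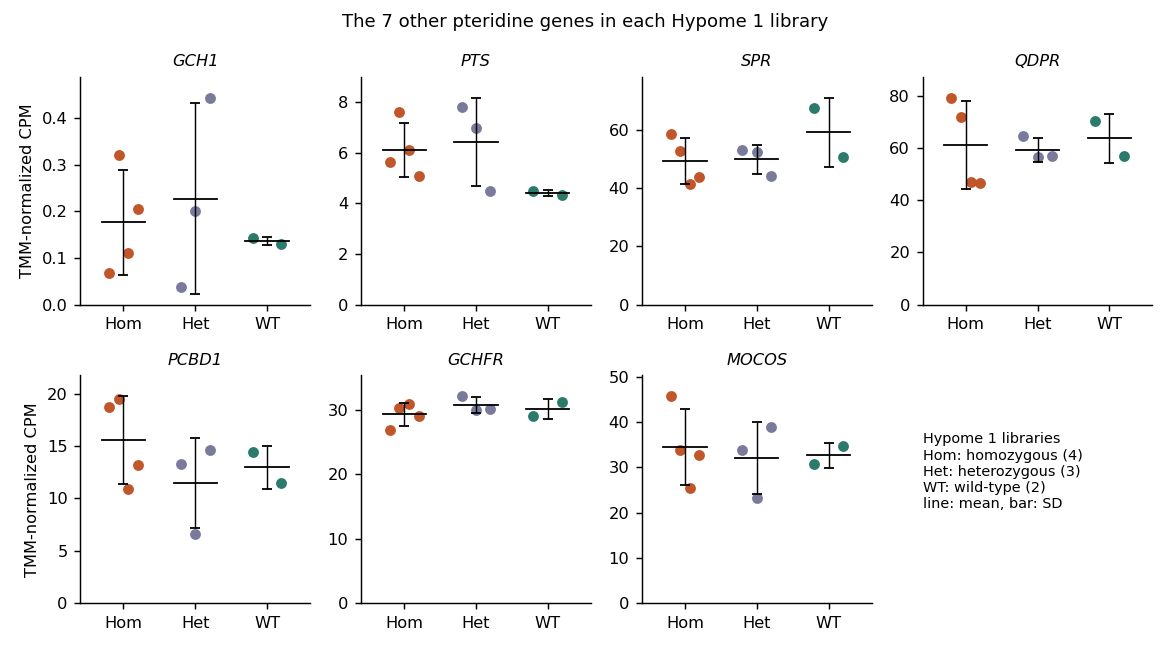
TMM-normalized CPM of the 7 other genes in each Hypome 1 library, on linear axes from 0, with the mean and SD of each genotype. The homozygous points overlap with those of at least 1 other genotype for every gene, and the 3 means of *GCHFR* lie between 29.4 and 30.8.

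In the Hypome 3 heterozygous libraries the 8 genes were found in a similar order, and no test against Hypome 1 was made because line, season and counting may differ together. *XDH* had 25, 14 and 36 counts there, or 0.422, 0.273 and 0.743 TPM. Hypome 1 heterozygous skin had 0.370, 0.594 and 0.989 TPM, so both heterozygous groups were far under the 3.59 TPM of the lowest homozygous Hypome 1 library. *GCH1* had 0.348 to 0.657 TPM and *PTS* 8.32 to 11.1 TPM in Hypome 3 heterozygous skin. *SPR* was at 45.4 to 52.3 TPM and *QDPR* at 129 to 150 TPM. *PCBD1*, *GCHFR* and *MOCOS* had means of 36.0, 40.4 and 22.3 TPM.

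The count table also holds rows named after pathway genes with the ending "-like". By name, these carry most of the counts for 2 steps of the pathway. They are called copies here by their names only, and whether they serve the same steps was not tested. *LOC129342328* (*PTS-like*) was among the listed pathway genes, and the other copies were added after the table and its values had been seen, so their values are given as a description. *PTS* lies at 4774640 to 4780194 on the minus strand of Scaffold 14. The copies *LOC129342328* (*PTS-like*), at 4758054 to 4767138, and *LOC129342291* (*PTS-like*), at 4781798 to 4789734, flank it on the plus strand, and the stretch of 31.7 kb that the 3 genes span holds no other gene. *LOC129342328* supplied 84.9% to 91.6% of the summed TPM of the 3 genes in homozygous, 86.2% to 87.2% in heterozygous and 84.0% to 87.1% in wild-type libraries. The row named *PTS* supplied 0.802% to 1.69% in homozygous, 1.48% to 4.35% in heterozygous and 1.47% to 1.81% in wild-type libraries. For the first step, *LOC129338014* (*GCH1-like*), at 51926988 to 51935674 on Scaffold 1, supplied at least 96.3% of the TPM summed with *GCH1* in every Hypome 1 library. Only uniquely mapped reads were counted, and how reads were split between such similarly named genes is uncertain.

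The copies of *PTS* and *GCH1* had positive log2 fold changes in homozygous skin, and edgeR called none of them. *LOC129342328* (*PTS-like*) had 178, 196, 137 and 259 CPM in homozygous, 75.5, 61.7 and 118 CPM in heterozygous, and 93.1 and 114 CPM in wild-type skin. All homozygous values were above all others, and the log2 fold change was 0.90 (SE 0.30, edgeR adjusted p = 0.466) against wild-type and 1.18 (SE 0.26, edgeR adjusted p = 0.0926) against heterozygous, so neither passed. DESeq2 on only the groups compared gave adjusted p = 0.0196 and adjusted p = 0.000756, in comparisons where it called 2.67% and 6.36% of all genes. Over 20 alternatives the adjusted p ranged from 0.0196 to 0.999 against wild-type and from 0.000387 to 0.999 against heterozygous. As TPM the homozygous values ran from 423 to 865 and overlapped with 251 to 432 in heterozygous and 337 to 436 in wild-type skin. A model with a term for sampling year gave 0.52 against heterozygous on the log2 scale. Within the latest year the homozygous mean was 1.41 times the heterozygous value and 1.79 times the wild-type value, and within the middle year it was 1.92 times the wild-type value.

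*LOC129342291* (*PTS-like*) had 27.2, 36.9, 32.9 and 32.6 CPM in homozygous, 12.1, 10.3 and 23.2 CPM in heterozygous, and 23.9 and 22.8 CPM in wild-type skin. The homozygous values were again the highest as CPM, with log2 fold changes of 0.47 (SE 0.29) against wild-type, the value *PTS* itself had, and 1.09 (SE 0.26) against heterozygous. As TPM, homozygous replicate 1 had 42.5, below the 56.9 and 57.4 of the wild-type libraries. *LOC129338014* (*GCH1-like*) had 4.26, 11.0, 7.81 and 17.6 CPM in homozygous, 2.32, 1.48 and 4.39 CPM in heterozygous, and 2.82 and 5.09 CPM in wild-type skin. Homozygous replicate 1 fell within the range of the other genotypes, and the log2 fold changes were 1.36 (SE 0.59) and 1.90 (SE 0.52). With the term for sampling year, *LOC129342291* differed by 0.56 and *LOC129338014* by 1.00 against heterozygous on the log2 scale.

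**Figure D4:**
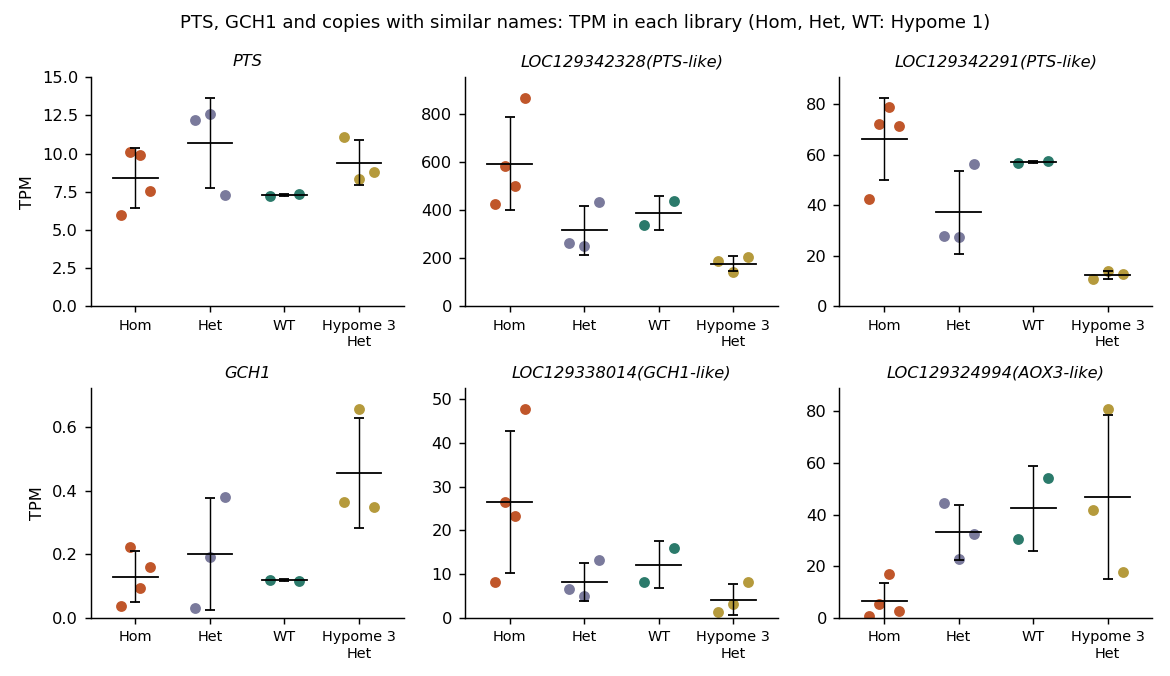
TPM of *PTS*, *GCH1* and 4 copies in each library, on linear axes from 0, with the mean and SD of each group. *LOC129342328* (*PTS-like*) averages 593 TPM in homozygous skin and *PTS* 8.39 TPM, and *LOC129324994* (*AOX3-like*) is lowest in the homozygous libraries.

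Aldehyde oxidases use the same sulfurated molybdenum cofactor as XDH and can also oxidize pterins. With no library of the compared groups left out, neither tool called any of them higher or lower in homozygous skin. The table has no row named *AOX1*. *LOC129324994* (*AOX3-like*), at 226114064 to 226238003 on the minus strand of Scaffold 2, had 2.93, 15.6, 39.7 and 6.63 CPM in homozygous, 108, 48.6 and 75.7 CPM in heterozygous, and 73.0 and 121 CPM in wild-type skin. Every homozygous library lay below every other library, also as TPM. The log2 fold changes were -2.58 (SE 0.75, edgeR adjusted p = 0.441) against wild-type and -2.26 (SE 0.69, edgeR adjusted p = 0.143) against heterozygous. Without homozygous replicate 3, the highest of its genotype, they were -3.52 and -3.19, and without both libraries of lower RNA integrity -1.81 and -1.48. *LOC129324995*, on the opposite strand inside it, had at most 2 counts. The other 3 *AOX3-like* genes of the same 750 kb stretch had log2 fold changes of -0.79 to -0.86 against wild-type and -0.45 to -0.56 against heterozygous. For none of the 3 did every homozygous library lie below all others, although *LOC129324156* and *LOC129324707* lay below both wild-type libraries and *LOC129323628* below the heterozygous ones. *LOC129329162* (*AOX1-like*), on Scaffold 4, had a mean of 126 CPM in homozygous, 127 CPM in heterozygous and 101 CPM in wild-type skin. In Hypome 3 heterozygous skin *LOC129324994* had 41.8, 80.8 and 17.7 TPM.

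Of 20 copies 17 passed the filter on low counts, and of these 0 passed edgeR's adjusted p of 0.05 in either comparison with homozygous skin. At an unadjusted p under 0.05 there were 6 against wild-type, of which 2 were higher and 4 lower, and 7 against heterozygous, of which 6 were higher and 1 lower, beside 8.53% and 17.8% of all genes. DESeq2 on only the groups compared called 1 of 17 against wild-type, *LOC129330339* (*UOX-like*), and 3 against heterozygous, *LOC129342291* (*PTS-like*), *LOC129338014* (*GCH1-like*) and *LOC129329970* (*PNP-like*), beside 2.67% and 6.36% of all genes. The 4 homozygous libraries were all above the others for 3 of the 17 copies and all below for 1, beside 9.65% of all genes for both directions.

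**Figure D5:**
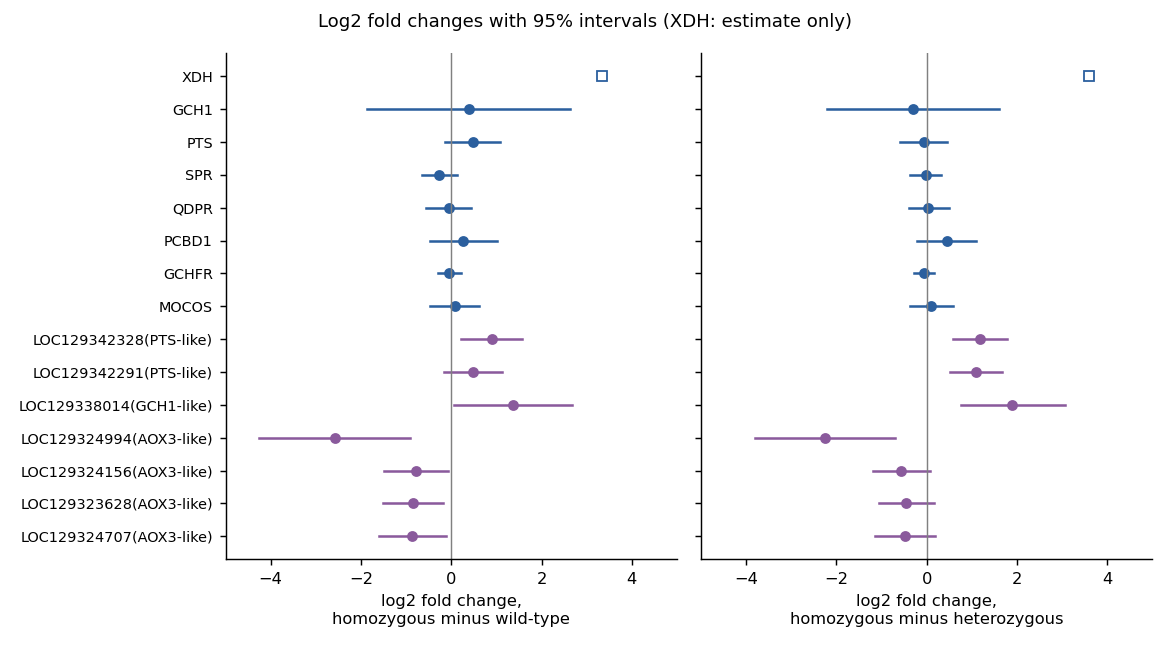
Log2 fold changes of the 8 genes and 7 copies, with 95% intervals from edgeR's fit of all 9 Hypome 1 libraries. *XDH* is drawn as an open square with no interval because it was chosen by this difference, the 7 other genes center near 0, and the *AOX3-like* copies lie to the left.

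Among other genes of BH4 synthesis and use, edgeR called none. Besides the 8, the list of pteridine and BH4 genes had 16 names, 10 of them in the table and 7 past the filter, and 0 of 7 passed edgeR's adjusted p in either comparison. At an unadjusted p under 0.05 there were 1 against wild-type, *LOC129342328* (*PTS-like*), and 3 against heterozygous, among them the same gene and *NOS3*, beside 8.53% and 17.8% of all genes. The list's median log2 fold change was 0.46 against wild-type and 0.19 against heterozygous, beside 0.01 and 0.00 over all genes. The list includes genes with at most 13 or 18 counts per Hypome 1 library. These had log2 fold changes of 0.53 and 1.43 against wild-type, and -0.58 and -0.26 against heterozygous. DESeq2 on only the groups compared called 1 of 5 genes against wild-type, *LOC129342328*, and 2 of 5 against heterozygous, *LOC129342328* among them. Over all genes it called 2.67% and 6.36%. *NOS3*, the endothelial nitric oxide synthase that needs BH4, had a log2 fold change of 0.66 against heterozygous (edgeR adjusted p = 0.215).

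The genes that make the molybdenum cofactor or use it gave 0 of 6 past edgeR's adjusted p in either comparison, with median log2 fold changes of 0.05 against wild-type and -0.01 against heterozygous. At an unadjusted p under 0.05, 1 gene, *MOCS1*, which starts the synthesis of the cofactor, was lower against wild-type by a log2 value of -0.33 (edgeR adjusted p = 0.583), and 0 passed against heterozygous. Over all genes the shares at an unadjusted p were 8.53% and 17.8%. DESeq2 on only the groups compared called 0 of 6 in each, beside 2.67% and 6.36% of all genes. Outside this list, the copy *LOC129335206* (*MOCS2-like*) had log2 fold changes of 0.43 (edgeR adjusted p = 0.629) and 0.44 (edgeR adjusted p = 0.257). As TPM its homozygous values, 20.4 to 24.2, overlapped with 17.1 to 23.4 in heterozygous skin. The *MTARC2-like* copies had -0.84 to 0.23 against wild-type and -0.49 to 0.06 against heterozygous.

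Genes of GTP supply and purine breakdown lay mostly above 0. Of the 13 genes tested, 11 had a log2 fold change above 0 in each of the comparisons with wild-type and heterozygous skin. Of all 16751 genes tested, 8672 and 8311 did. The medians of the 13 were 0.29 and 0.22, against medians of 0.01 and 0.00 over all genes. None of the 13 passed edgeR's adjusted p. At an unadjusted p under 0.05 there were 2 against wild-type, *IMPDH2* and *HPRT1*, and 4 against heterozygous, *IMPDH2*, *PNP*, *GDA* and *NT5C2*, all higher in homozygous skin, beside 8.53% and 17.8% of all genes. DESeq2 on only the groups compared called 0 of 12 against wild-type and 3 of 13 against heterozygous, *GDA*, *IMPDH2* and *PNP*, beside 2.67% and 6.36% of all genes. The summed level of the 13 genes was 597 to 704 CPM in homozygous, 465 to 509 CPM in heterozygous and 506 to 543 CPM in wild-type skin, but as TPM 383 to 496 in homozygous overlapped with 389 to 418 in heterozygous and 432 to 435 in wild-type skin. *IMPDH2*, which controls the rate of guanine nucleotide synthesis, had 282, 236, 234 and 225 CPM in homozygous, 183, 176 and 170 CPM in heterozygous, and 192 and 189 CPM in wild-type skin. All homozygous values were above all others as CPM, but as TPM 190 to 243 in homozygous overlapped with 178 to 203 in heterozygous and 198 to 207 in wild-type skin. The log2 fold changes of *IMPDH2* were 0.36 (edgeR adjusted p = 0.52) and 0.47 (edgeR adjusted p = 0.111).

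*PNP*, which releases the purine bases that XDH acts on downstream, had 42.5, 32.0, 80.5 and 58.6 CPM in homozygous, 22.4, 16.9 and 30.2 CPM in heterozygous, and 46.3 and 27.5 CPM in wild-type skin. It was above heterozygous in every homozygous library as CPM and overlapped with wild-type. As TPM, *PNP* homozygous replicates 1 and 2, at 19.0 and 17.9, were below heterozygous replicate 3 at 20.9. *GDA*, the guanine deaminase that makes xanthine, had 7.49, 7.07, 5.07 and 6.75 CPM in homozygous, 3.60, 1.86 and 3.89 CPM in heterozygous, and 5.41 and 3.48 CPM in wild-type skin. The log2 fold changes against heterozygous were 1.20 for *PNP* (edgeR adjusted p = 0.116) and 1.08 for *GDA* (edgeR adjusted p = 0.118). *HPRT1*, the salvage enzyme for hypoxanthine and guanine, differed by 0.41 against wild-type (edgeR adjusted p = 0.505), and *NT5C2*, a nucleotidase, by 0.33 against heterozygous (edgeR adjusted p = 0.23).

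Uricase degrades the uric acid that XDH makes. *LOC129330339* (*UOX-like*) had 9.57, 6.39, 3.41 and 7.29 CPM in homozygous, 1.99, 0.0753 and 1.75 CPM in heterozygous, and 1.99 and 1.37 CPM in wild-type skin. Every homozygous library was above every other Hypome 1 library, also as TPM. The log2 fold changes were 1.99 (SE 0.86) and 2.38 (SE 0.75), and heterozygous replicate 2 had only 3 counts. In Hypome 3 heterozygous skin the *UOX-like* gene had 0.201, 1.74 and 8.85 TPM. The last was above the 7.17 TPM of homozygous Hypome 1 replicate 3. *LOC129329970* (*PNP-like*) had 128, 108, 147 and 148 CPM in homozygous, 62.8, 58.3 and 88.5 CPM in heterozygous, and 109 and 82.7 CPM in wild-type skin. As CPM with TMM factors, homozygous replicate 3 was the lowest of its genotype for *XDH*, *LOC129342328* and the *UOX-like* gene. It was the highest for *LOC129324994* (*AOX3-like*). As TPM, homozygous replicate 1 was the lowest for *LOC129342328*, at 423 against 498 in replicate 3.

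The likeness of each gene to *XDH* was measured as Pearson's r of log2 CPM over the 9 Hypome 1 libraries and ranked over 16750 genes. Because *XDH* falls into a high homozygous and a low other cluster, r mostly carries the difference between these clusters and is given with no p. The 7 other genes had r of 0.573 for *PCBD1* (rank 3142), 0.335 for *MOCOS* (rank 5387), 0.12 for *GCH1* (rank 7135), 0.096 for *QDPR* (rank 7353), 0.082 for *PTS* (rank 7465), -0.157 for *SPR* (rank 9470) and -0.601 for *GCHFR* (rank 13912). None was among the genes most like *XDH*. *LOC129342328* (*PTS-like*) reached 0.898 (rank 269) and *LOC129324994* (*AOX3-like*) -0.907 (rank 16655). Of the other copies, *LOC129335206* (*MOCS2-like*) had 0.818 (rank 750) and *LOC129324156* (*AOX3-like*) -0.742 (rank 15439). The 5 highest were *ANKK1* (0.975), *LOC129330341* (*VTG1-like*, 0.975), *LOC129343490* (0.974), *LOC129341169* (*IL20RA-like*, 0.974) and *TMEM30A* (0.974). The *VTG1-like* gene was near the floor, at 0.222 to 0.716 CPM in homozygous and at most 0.111 CPM in other libraries, beside the 0.1 added. *LOC129343490* had 1.44 to 14.7 CPM in homozygous and 0.0736 to 0.683 CPM in the other libraries. *TMEM30A*, a subunit of phospholipid flippases, had 91.1 to 138 CPM in homozygous, 53.7 to 70.9 CPM in heterozygous and 63.1 to 74.7 CPM in wild-type skin. The 5 lowest were *NOTUM* (-0.966), *ANTXR1* (-0.964), *MMP2* (-0.963), *ANGPTL1* (-0.962) and *ESYT2* (-0.961). *NOTUM*, a secreted inhibitor of Wnt signaling, had 12.1 to 23.7 CPM in homozygous, 28.9 to 36.8 CPM in heterozygous and 35.0 to 37.6 CPM in wild-type skin.

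Marker genes of xanthophores had a median log2 fold change near 0. Their summed level was higher in every homozygous library than in all others as CPM, but the groups overlapped as TPM. Of 10 markers, 9 were in the table and 9 were tested, and 0 passed edgeR's adjusted p. At an unadjusted p under 0.05 there were 1 against wild-type, *SCARB1*, and 2 against heterozygous, *SCARB1* and *BCO2*, and DESeq2 called 0 of 9 against wild-type and the same pair against heterozygous. The shares at an unadjusted p, 1 of 9 and 2 of 9, stand beside 8.53% and 17.8% of all genes. On only the groups compared, DESeq2 called 2.67% and 6.36% of all genes. The list's median log2 fold change was -0.07 against wild-type and 0.10 against heterozygous. Its summed level was 322 to 461 CPM in homozygous, 238 to 290 CPM in heterozygous and 279 to 312 CPM in wild-type skin, and none of its 9 genes was at 0. As TPM the sums overlapped, with 173 to 270 in homozygous, 148 to 184 in heterozygous and 187 to 203 in wild-type skin. *BCO2*, which cleaves carotenoids, had the highest CPM of the list averaged over the 9 Hypome 1 libraries. In Hypome 3 heterozygous skin it averaged 4.07 TPM, against 72.4 TPM in Hypome 1 heterozygous skin, with no test made. *BCO2* had 134, 243, 109 and 108 CPM in homozygous, 81.8, 64.2 and 96.1 CPM in heterozygous, and 105 and 97.7 CPM in wild-type skin. *SCARB1*, which takes up carotenoids, had 132, 79.0, 51.8 and 93.5 CPM in homozygous, 31.5, 22.4 and 46.6 CPM in heterozygous, and 52.7 and 35.8 CPM in wild-type skin. The lineage genes *CSF1R*, *PAX7* and *PAX3* had log2 fold changes of -0.09, -0.26 and -0.30 against wild-type, with overlapping groups. Against heterozygous they were 0.10, -0.28 and 0.29. *MYCBP2*, the next in CPM after *BCO2*, had -0.07 against wild-type and -0.14 against heterozygous. The higher sum in CPM lay mainly with *BCO2* and *SCARB1*. In homozygous skin *MYCBP2*, *PLIN2* and *SLC2A9* averaged 64.2, 42.2 and 17.9 CPM. They averaged 70.6, 41.5 and 17.4 CPM in heterozygous and 67.2, 45.3 and 17.3 CPM in wild-type skin.

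The other lists held the cell types of skin, and *COL1A1* of dermal fibroblasts was at 62700 to 85100 CPM in all 9 libraries. The summed epidermal markers, led in CPM by *DSP* and *COL17A1*, stood at 3580 to 3790 CPM in homozygous, 2260 to 3090 CPM in heterozygous and 2750 to 3120 CPM in wild-type skin. The epidermal list rests on 4 of 8 genes, since no rows carry the names *KRT5*, *KRT14*, *KRT15* or *CDH1*. Among the cell type lists, the xanthophore and epidermal sums were the 2 that were higher in every homozygous library than in all others as CPM, and as TPM neither was. The epidermal sums then ran from 582 to 938 TPM in homozygous, 686 to 797 TPM in heterozygous and 750 to 788 TPM in wild-type skin. Summed melanophore markers, led in CPM by *PMEL* and *DCT*, were at 1600 to 2210 CPM in homozygous, 997 to 1620 CPM in heterozygous and 1720 to 2080 CPM in wild-type skin. Skeletal muscle markers, led in CPM by *ACTA1* and *CKM*, ranged from 17.8 to 3240 CPM among the homozygous libraries alone, against 204 to 2240 CPM in heterozygous and 321 to 499 CPM in wild-type skin. Iridophore sums were 465 to 534 CPM in homozygous, 414 to 448 CPM in heterozygous and 428 to 490 CPM in wild-type skin. Liver and gut markers summed to at most 25.7 CPM, and *CDX2* of the gut was at 0 in every library. The part of any of these cell types in the levels of *XDH* and the copies was not tested.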

How the data were processed

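RNA of embryonic dorsal skin was sequenced as stranded paired-end mRNA libraries. Per the labels and the methods of the study, reads were mapped with STAR 2.7.10b to a leopard gecko assembly made by the authors, annotated by lift-over from RefSeq, and uniquely mapped pairs were counted per gene with featureCounts of Subread 2.0.6. The deposited values are raw counts per gene. No source used here gives the strand setting, so overlapping genes are uncertain. Totals were 32455975 to 52017277 counts per Hypome 1 library and 16826633 to 21208295 per Hypome 3 heterozygous library. Among counts of 10 to 2000, even numbers made up 57.8% to 65.5% in Hypome 1 and 49.9% to 50.0% in Hypome 3, so both reads of a pair may have been counted in Hypome 1, and each table was analysed on its own. A record broken over 5 lines was left out of each table, and 3 columns of the Hypome 3 table that match no sample were not used, so Hypome 3 genotypes were not compared.

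All 9 Hypome 1 libraries were fitted in R 4.3.3 with edgeR 4.0.16 (TMM, minimum count 10, minimum total count 15, 16751 genes) and a mean per genotype. Contrasts used 2-sided quasi-likelihood tests with Benjamini-Hochberg adjustment over all genes tested and a threshold of 0.05. Standard errors were derived from each F statistic, and correlations used log2 CPM with 0.1 added. TPM was computed from counts and gene lengths. On simulated data with 200 changed genes among 16751, edgeR recovered 27% of changes of log2 size 1 and 77% of size 2 for homozygous against wild-type, and 43% and 80% for homozygous against heterozygous. DESeq2 1.42.0 recovered 53% and 83%, and 60% and 85%.

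The genes and lists were chosen with earlier results of these data known. Named are the 8 genes, *LOC129342328*, pathway genes with an unadjusted p under 0.05 in a comparison with homozygous skin, *AOX1*, the leading and absent markers, and the 5 genes at each end of the ranking by r. A gene of the listed pathways is not reported here. Copies, *SCARB1*, *PLIN2*, *SLC2A9* and lineage markers were named after their values were seen. Alternatives were DESeq2 on 9 libraries or on the groups compared, edgeR on the groups compared, other scalings and filters, halved counts, the replicate number, the year, RNA integrity, and each library left out. TPM for the overlap of groups and for list sums, and ratios within a year were added after the data were seen. Joining year and integrity by replicate number is uncertain.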

Additional observations from a re-analysis of the deposited data

How the results depend on the processing

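The 7 genes beside *XDH* gave 0 calls in each of the 3 comparisons under all 20 alternatives, with a lowest adjusted p of 0.261 in any fit, although *GCH1* was tested in only 15 of them. *XDH* kept a log2 fold change of 2.98 to 3.67 against wild-type and of 2.78 to 4.05 against heterozygous. Its lowest value against heterozygous came with the term for sampling year, which gave 0.51 for heterozygous against wild-type. The log2 fold changes of the 7 genes turned sign in 43 of 405 settings, and the cause was not tested. With the replicate block, homozygous against wild-type gave -0.24 for *GCH1* and 0.16 for *QDPR*, homozygous against heterozygous 0.04 for *PTS* and 0.02 for *SPR*, and heterozygous against wild-type -0.06 for *GCH1* and 0.03 for *QDPR*. With sampling year, homozygous against heterozygous gave 0.57 for *PTS*, 0.19 for *SPR* and -0.35 for *MOCOS*, and heterozygous against wild-type -0.11 for *PTS*, 0.14 for *PCBD1*, -0.02 for *GCHFR* and 0.42 for *MOCOS*. Without the libraries of lower RNA integrity, *GCHFR* and *MOCOS* gave 0.03 and -0.13 against wild-type, and *PTS*, *GCHFR* and *MOCOS* gave 0.10, 0.01 and -0.10 against heterozygous. Without TMM factors, *MOCOS* gave -0.15 against wild-type and -0.10 against heterozygous, and *QDPR* -0.16 against heterozygous. Genes with all homozygous libraries outside the range of the others numbered 1 without TMM factors (*GCHFR*) and 1 as TPM (*SPR*), against 0 as reported.

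Leaving out each library in turn, homozygous against wild-type ranged from -0.21 to 0.10 for *QDPR*, -0.09 to 0.02 for *GCHFR* and -0.10 to 0.20 for *MOCOS*. Homozygous against heterozygous ranged from -0.28 to 0.09 for *PTS*, -0.12 to 0.06 for *SPR*, -0.11 to 0.16 for *QDPR* and -0.08 to 0.26 for *MOCOS*. Heterozygous against wild-type ranged from -0.25 to 0.06 for *QDPR*, -0.38 to 0.10 for *PCBD1*, -0.02 to 0.08 for *GCHFR* and -0.19 to 0.16 for *MOCOS*. For *XDH*, heterozygous against wild-type ranged from -0.71 to 0.08.

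Over all genes, edgeR called 3 in homozygous against wild-type and DESeq2 209 on 9 libraries and 426 on the groups compared, and edgeR called 0 with the replicate block, 1 without the libraries of lower RNA integrity, 14 without homozygous replicate 3 and 0 without wild-type replicate 2. Homozygous against heterozygous gave 6 with edgeR, 1135 and 1032 with DESeq2, 3 with edgeR on the groups compared, 16 with no filter, 0 with the replicate block, 0 with sampling year, 2 without the libraries of lower RNA integrity, 53 without heterozygous replicate 3, 274 without homozygous replicate 3, and 2 to 8 without any other single library. Heterozygous against wild-type gave 0 with edgeR, 2 with DESeq2 on the groups compared and 3 without heterozygous replicate 3. Against heterozygous, edgeR called *LOC129342328* (adjusted p = 0.0408) and *LOC129324994* (adjusted p = 0.0309) without homozygous replicate 3, and *LOC129342291* (adjusted p = 0.0147) without heterozygous replicate 3. Deviations of same-numbered libraries from their genotype means correlated between -0.339 and 0.274. Differently numbered libraries were not compared in this way, so these values do not settle whether replicate numbers pair the samples. *GCH1* rests on at most 16 counts per Hypome 1 library, which limits what could be detected.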

Other observations

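*AMPD1*, the AMP deaminase of skeletal muscle and a purine gene, was singled out after its values were seen. It had 12.1, 0.138, 0.0 and 0.256 CPM in homozygous, 5.96, 0.352 and 15.8 CPM in heterozygous, and 1.54 and 2.55 CPM in wild-type skin. *ACTA1*, skeletal muscle actin, had 1880, 8.98, 3.96 and 33.0 CPM in the same homozygous libraries, 685, 100 and 1210 CPM in the heterozygous and 162 and 278 CPM in the wild-type libraries. *CKM*, muscle creatine kinase, had 850, 4.11, 0.693 and 12.3 CPM in homozygous, 376, 57.4 and 658 CPM in heterozygous, and 106 and 129 CPM in wild-type skin. All 3 genes were high in homozygous replicate 1 and heterozygous replicates 1 and 3, and in homozygous replicate 3 they were at their lowest. *XDH* had 31.1 CPM in homozygous replicate 1 and 10.1 CPM in homozygous replicate 3, but 1.09 and 2.78 CPM in heterozygous replicates 1 and 3. The part of muscle RNA in these differences was not tested.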
